A study of Mus musculus with 21 samples.

Results

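The liver's difference between mice given titanium dioxide nanoparticles (nano-TiO2) and mice given vehicle was compared between day 1 and day 28 after a single dose into the trachea. The quantity reported for each gene is the TiO2 effect at day 28 minus the TiO2 effect at day 1, where a TiO2 effect is the mean of the TiO2 mice minus the mean of the control mice on the log2 scale. A value below 0 marks an effect that was smaller or more negative at day 28, and a value above 0 one that was larger or less negative. All 21 of the 21 arrays of the series entered it, since the comparison needs all 4 groups. Scan day, taken from the array headers, was a term of the model, and 17640 features were tested, 11255 of them named genes.

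All animals were female C57BL/6 mice, 5 to 7 weeks old on purchase and acclimatised for 1 to 3 weeks. The 6 TiO2 mice of day 1 and the 6 of day 28 had received 162 µg of nano-TiO2 in 40 µl, and their livers were taken 1 or 28 days later. The 5 control mice of day 1 and the 4 of day 28 had received 40 µl of vehicle alone. Vehicle and particle suspension shared the same liquid, 0.9% saline in water with 10% cell-free lung lavage fluid from untreated mice, so the controls carry the effect of instillation, anaesthesia and foreign lavage fluid too. Mice of day 28 were older at sampling than those of day 1, and each day has its own control. On each array 1 liver was labelled with Cy5 (red), and a universal reference pooled from 11 mouse cell lines with Cy3 (green). Levels are log2 ratios of liver to reference, so each gene is compared with itself across mice and not with other genes. In RNA of whole liver, fewer cells of a type and less RNA per cell cannot be told apart.

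The hepatic acute phase response is the liver's reaction to inflammation elsewhere in the body: cytokines released into the blood, interleukin-6 and interleukin-1 above all, make hepatocytes transcribe secreted defence proteins. Serum amyloid A proteins, lipocalin-2, the orosomucoids and haptoglobin belong to it, and C/EBP, STAT3 and NF-kB are among the transcription factors that act on their promoters. Such a reaction is known to decline once the stimulus ends, whereas a lasting stimulus can keep it up, which is what a comparison of an early with a late day can address. Cholesterol synthesis, the other pathway described at length here, is switched on by SREBP2 through sterol response elements when sterols in the cell are low.

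The promoters of the genes with the lowest change of effect in the acute phase group, and of Hmgcs1, the cholesterol gene with the highest, are shown because these genes carry the contrast between an early and a late difference. Each line is the 250 bases before the transcription start from RefSeq on GRCm38.p6, 5′ to 3′ on the gene's strand, at chr7:46715677-46715926 on the minus strand for Saa3, chr7:46742981-46743230 on the minus strand for Saa1, chr2:32387740-32387989 on the minus strand for Lcn2 and chr13:119690101-119690350 on the plus strand for Hmgcs1. Capitals mark a match to the C/EBP letters TTNNGCAA on either strand in the 3 acute phase genes, and to the sterol response element letters TCACNCCAC in Hmgcs1.
Saa3: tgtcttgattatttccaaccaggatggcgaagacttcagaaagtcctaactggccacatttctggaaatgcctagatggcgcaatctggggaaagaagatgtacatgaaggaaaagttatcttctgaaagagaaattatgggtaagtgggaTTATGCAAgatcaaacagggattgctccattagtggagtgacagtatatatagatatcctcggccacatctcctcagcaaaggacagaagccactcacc
Saa1: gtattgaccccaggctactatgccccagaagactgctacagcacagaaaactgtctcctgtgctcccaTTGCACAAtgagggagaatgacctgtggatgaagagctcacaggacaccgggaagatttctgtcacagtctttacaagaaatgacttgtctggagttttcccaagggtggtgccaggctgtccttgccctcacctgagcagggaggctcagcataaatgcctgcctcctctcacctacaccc
Lcn2: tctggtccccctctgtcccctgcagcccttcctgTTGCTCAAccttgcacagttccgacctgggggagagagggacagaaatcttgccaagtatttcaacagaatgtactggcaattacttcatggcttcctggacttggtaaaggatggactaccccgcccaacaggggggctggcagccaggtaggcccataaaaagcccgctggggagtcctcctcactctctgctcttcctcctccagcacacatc
Hmgcs1: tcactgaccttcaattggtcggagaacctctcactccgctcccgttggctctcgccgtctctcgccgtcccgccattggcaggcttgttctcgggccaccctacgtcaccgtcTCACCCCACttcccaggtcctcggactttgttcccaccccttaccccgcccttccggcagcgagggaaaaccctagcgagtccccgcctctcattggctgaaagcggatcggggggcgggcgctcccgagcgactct

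The C/EBP letters begin at position -99 in Saa3, -182 in Saa1 and -216 in Lcn2, where -1 is the base just before the start. They were present in all 6 of the 8 acute phase genes of the panel that matched the promoter table (Saa1, Saa2, Saa3, Lcn2, Orm2 and Orm3), and in 9.56% of all 32851 promoter windows of that length. In Saa3 the match overlaps one to the D-box letters TTATGNAA, found in 3.07% of windows. The NF-kB motif searched was in 0 of the same 6 windows, on either strand, and in 1.41% of all windows. The sterol response element letters, in 1.05% of windows, begin at -137 in Hmgcs1, between matches to CCAAT, the NFY letters, on the other strand at -176 and -45, and CCAAT is in 33.8% of windows. The sterol response element letters were also in the Saa3 window, on the other strand at -67, where they are not in capitals. The NF-kB motif was in the window of Mvd, another cholesterol gene, on the other strand at -47. The motifs thus did not separate the 2 pathways. These matches describe the letters of these windows only.

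No feature passed the test for a changed TiO2 effect. Of 17640 features, 0 had an adjusted p under 0.05 in limma, 0% of those tested, and the smallest adjusted p was 0.9999. At an unadjusted p under 0.05 there were 507 features, 2.87%, of which 307 were higher at day 28 (1.74%) and 200 lower (1.13%). The share of features above 0 was 49.9%, and the median of all features was -0.0002. The standard error of a typical feature was 0.158 on the log2 scale.

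The TiO2 effects themselves were of unequal size at the 2 times. The effect reached a log2 size of 1 in 16 features at day 1, 11 higher in TiO2 mice (0.0624% of those tested) and 5 lower (0.0283%), and in 3 at day 28, 1 higher (0.00567%) and 2 lower (0.0113%). At either time 0 features, 0%, passed the adjusted test. Of the 16, 13 had a size under 0.5 at day 28. They were picked by their size at day 1, so that count is not independent evidence of a decline. Over all features the day 28 effect ran from -0.19 at the 5th percentile to 0.21 at the 95th, so sizes under 0.5 were the rule. The size of 1 was reached at both days by Cyp7a1 alone, on the probe tested, and by 0 features in opposite directions. The feature that reached it at day 28 with a size under 0.5 at day 1 was Sult2a8, described with the single arrays further on. The change of effect reached a size of 1 in 14 features, 10 lower (0.0567% of those tested) and 4 higher (0.0227%).

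**Figure D1:**
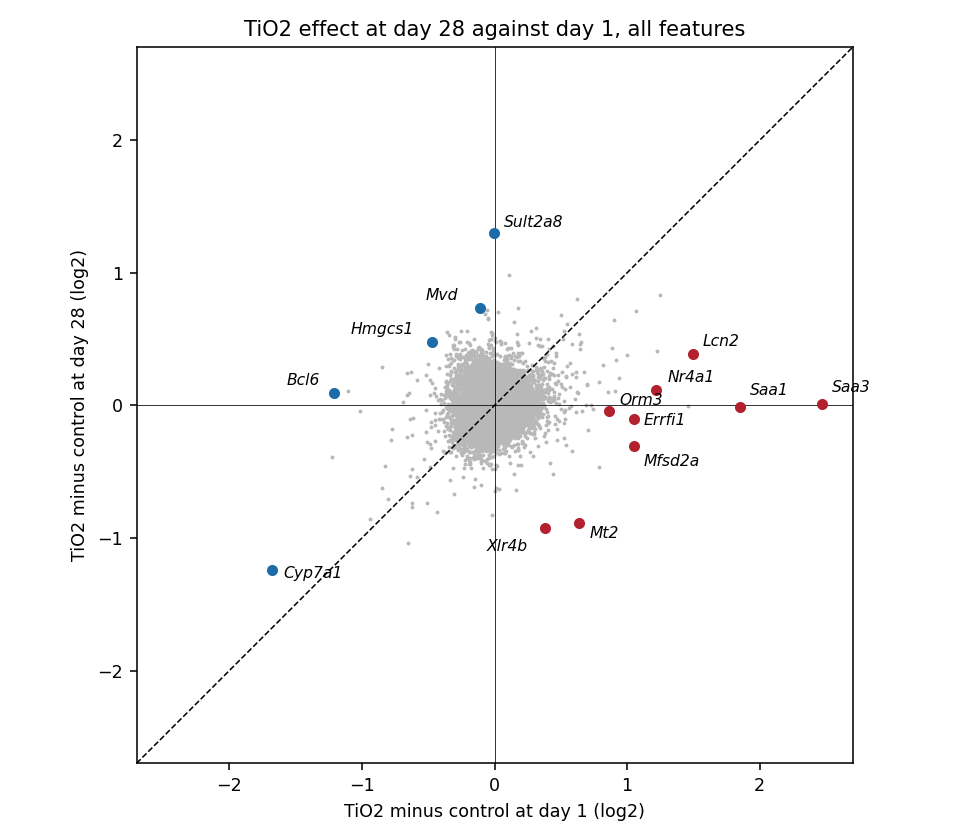
TiO2 minus control at day 28 (vertical, log2) against the same at day 1 (horizontal, log2) for all 17640 features, from the model with scan day as a term; the dashed line marks equal effects. Red points are named genes with a change below 0 and blue points above 0. Saa3 lies at 2.47 and 0.01, on the horizontal axis far right, and Cyp7a1 at -1.68 and -1.24, near the line of equal effects.

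Among the acute phase proteins, Saa3, Saa1 and Lcn2 stood above every control in 5 of 6 TiO2 livers at day 1. At day 28 the groups overlapped for Saa3 and Saa1. Lcn2 was then still higher in the TiO2 livers, by a smaller difference whose 95% interval in the model held 0. Saa3 encodes a serum amyloid A protein made in liver and in macrophages. Its log2 ratio in the 5 control mice of day 1 was -1.44, -0.44, -1.28, -1.42 and -0.28. The 6 TiO2 mice of day 1 had a lowest value of -0.81, a median of 1.82 and a highest of 3.34. Apart from TiO2 replicate 2, which lay inside the control range, the TiO2 livers of day 1 were above every control liver. At day 28 the 4 controls had -0.95, -1.08, -1.54 and -0.75, and the 6 TiO2 mice ran from -1.66 through a median of -1.22 to -0.20. The groups overlapped at day 28.

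In the model the Saa3 effect was 2.47 (SE 0.45), 5.53-fold, at day 1 and 0.01 (SE 0.48) at day 28, where the 95% interval ran from -0.997 to 1.016. The change of effect was -2.46 (SE 0.66), the largest in size of all features, with an interval of -3.83 to -1.08 and an unadjusted p of 0.00126. After adjustment over all features limma gave 0.9999, and the range over 40 alternative settings was 0.342 to 1.000. Within the single scan days the change was -1.87, -2.19 and -3.47.

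Saa1, one of the main circulating acute phase serum amyloids, had the same course. The controls of day 1 had log2 ratios of 2.85, 3.40, 2.85, 2.55 and 3.73, and the TiO2 mice of day 1 a lowest of 3.08, a median of 4.99 and a highest of 6.08. Replicate 2 of the TiO2 mice again lay among the controls and the other 5 above them. At day 28 the controls had 2.69, 3.18, 2.51 and 3.02, and the TiO2 mice 2.19 to 3.93 with a median of 2.69, with full overlap. The effect was 1.85 (SE 0.35) at day 1 and -0.01 (SE 0.37) at day 28, and its change was -1.86 (SE 0.50, unadjusted p 0.00133). The scan days gave -0.99, -1.90 and -2.59, a further probe of the gene gave -1.24, and the liver channel without the reference gave -2.92.

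Lcn2 encodes lipocalin-2, which binds bacterial iron carriers. In control livers of day 1 its log2 ratio was 0.16, 0.52, 0.39, 0.26 and 0.54, and in TiO2 livers it ran from 0.53 through a median of 2.01 to 2.82. The lowest TiO2 liver, replicate 2 once more, was just under the highest control. At day 28 the controls had -0.39, -0.35, -0.10 and -0.28, and the TiO2 mice -0.01 to 0.27 with a median of 0.07. Every TiO2 liver was then above every control liver, which held for 0.13% of all features at day 28. The controls themselves differed by -0.64 (SE 0.28) between the days, and the TiO2 livers of day 28 had a mean of 0.09 ± 0.10 (SD, n = 6) against 0.37 ± 0.17 (SD, n = 5) in the controls of day 1, with overlap.

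The Lcn2 effect was 1.497 (SE 0.26) at day 1 and 0.39 (SE 0.27) at day 28, where the 95% interval ran from -0.18 to 0.96. The change was -1.11 (SE 0.37, unadjusted p 0.00738 in limma). It was -0.73, -1.30 and -1.32 within the scan days. The liver signal of Lcn2 was well above background on 18 of 21 arrays, and on 2 of the 4 control arrays of day 28, which bounds how exactly the late difference is known. With the ratio computed by the scanner software the change was -0.41.

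Saa2 and Orm3 had smaller changes in the same direction. Saa2, the close neighbour of Saa1, had an effect of 0.53 at day 1 and -0.10 at day 28, a change of -0.64 (SE 0.24, unadjusted p 0.0157). Its groups overlapped at both days, from 3.45 to 5.01 in controls and 4.46 to 5.51 in TiO2 mice at day 1, and the lowest value belonged to control replicate 1. The Saa2 change was -1.33, -0.22 and -0.68 within the scan days, -0.14 with background correction on all spots and -3.37 with the liver channel without the reference, so its direction held but its size depended on the processing. Probes of Saa1 and Saa2 may take up each other's RNA, since the genes are near-identical copies. Orm3, an orosomucoid that binds drugs in plasma, had an effect of 0.86 at day 1 and -0.04 at day 28, a change of -0.91 (SE 0.39, unadjusted p 0.0318). Its TiO2 livers ran from 2.72 to 4.53 at day 1 and the controls from 2.29 to 3.76, so the groups overlapped there also. With median centring in place of loess the Orm3 change was -0.56.

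Abundant acute phase genes had smaller values. The change was -0.19 (SE 0.16) for Orm1, -0.43 (SE 0.28) for Orm2 and -0.21 (SE 0.20) for Hp, which encodes haptoglobin, the binder of free haemoglobin. Orm1 turned to 0.354 with background correction on all spots and to 0.254 with the scanner software's ratio, and Orm2 to 0.127 with correction on all spots, so no direction is given for either. Alb, the gene of albumin, which the acute phase lowers, had a change of -0.15 (SE 0.20).

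**Figure D2:**
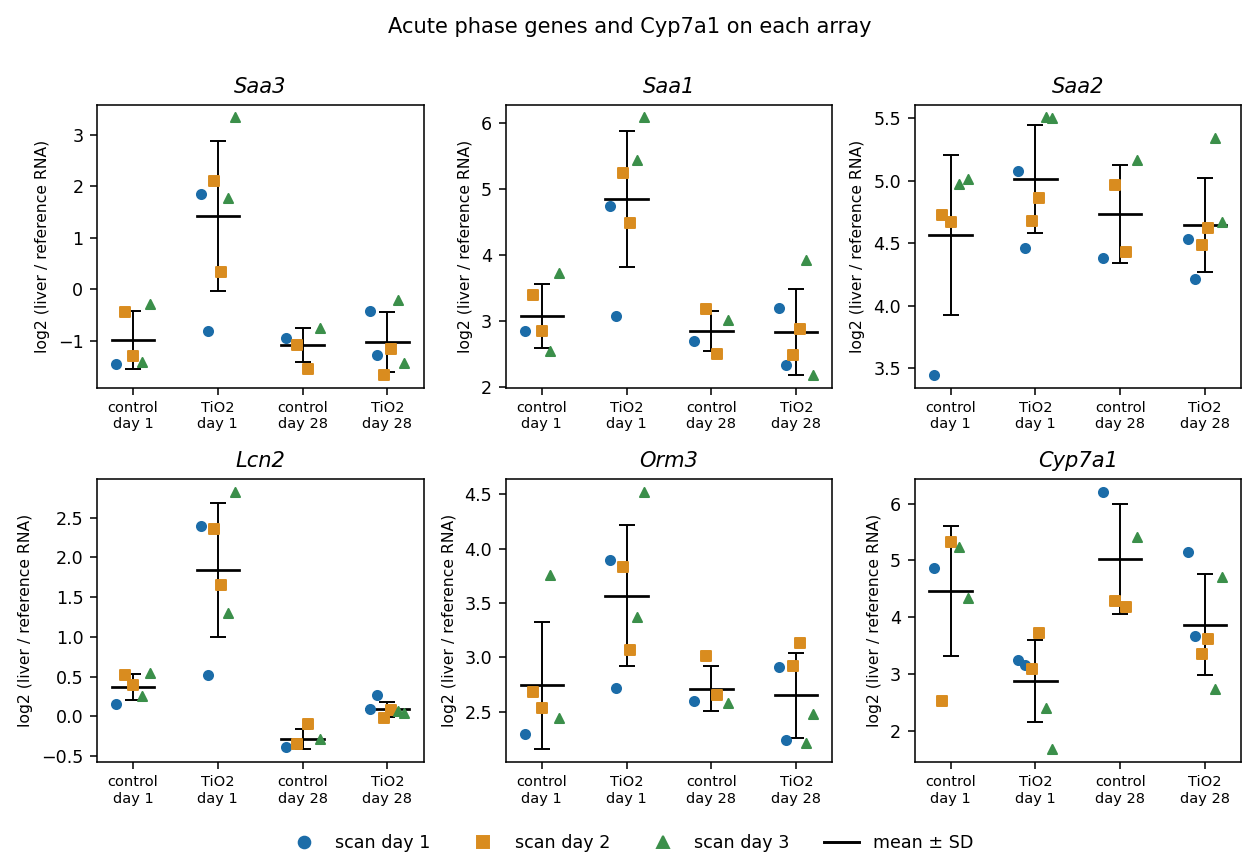
Log2 ratio of liver to reference RNA on each array for 5 acute phase genes and Cyp7a1, by group, with the scan day as colour and shape and the mean with SD in black. For Saa3, Saa1 and Lcn2, 5 of the 6 TiO2 mice of day 1 stand above all 5 controls; for Lcn2 the 6 TiO2 mice of day 28, at -0.01 to 0.27, stand above the 4 controls, at -0.39 to -0.10.

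Of 35 genes on the list of positive acute phase proteins, 33 were measured, and 25 had a change below 0 against 8 above, with 0 passing the adjusted test. Their median change was -0.21, beside -0.0002 over all features, and the median effect was 0.28 at day 1 and -0.01 at day 28. At an unadjusted p under 0.05, where 1.13% of all features were lower, 6 members were, namely Saa1, Saa2, Saa3, Lcn2, Orm3 and Lbp, the last the carrier of bacterial lipopolysaccharide at -0.45 (SE 0.21), and 0 were higher. Not all members had that course. Fga, which encodes a fibrinogen chain, had a change of 0.60 with effects of -0.20 and 0.39, and Apcs, serum amyloid P, had effects of 0.40 and 0.50, a change of 0.10. Within the scan days the median of the list was -0.27, -0.19 and -0.20. The list was known from earlier results to hold genes that differ at day 1, so its direction is not independent evidence. The 14 measured members of the negative acute phase list, of 16, had a median change of 0.01 with 7 on either side of 0.

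Markers of blood and resident immune cells were measured beside these genes. Of 15 neutrophil markers 6 were measured, with a median change of 0.03; Lcn2 is one of them, and S100a9, a calcium-binding protein of neutrophils, had effects of 0.54 and 0.62. The mean log2 ratio of these 6 markers, Lcn2 included, was 0.05 to 0.95 in TiO2 mice and -0.12 to 0.29 in controls at day 1. At day 28 it was -0.03 to 0.32 and -0.32 to -0.03. Only 2 of the 6 were well above background on every array. Ly6g, Elane, Camp, Ltf and Ngp were not among the features tested. The 13 of 16 Kupffer cell and macrophage markers had a median change of 0.08, with median effects of 0.14 at day 1 and 0.25 at day 28. The scan days gave median changes of -0.01, 0.64 and -0.28, so they differed in sign. The part of these cells in the acute phase values was not tested.

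The TiO2 mice alone, compared between the days, gave calls where the change of effect did not. Between TiO2 mice of day 28 and of day 1, 19 features differed at an adjusted p under 0.05, 0.108% of those tested, 12 lower and 7 higher at day 28. Saa3 fell by 2.46 (SE 0.43, adjusted p 0.0159 in limma), Saa1 fell by 2.01 (SE 0.33, adjusted p 0.0124) and Lcn2 fell by 1.75 (SE 0.24, adjusted p 0.00355). The controls of the same days differed by -0.0001 (SE 0.50) for Saa3, -0.15 (SE 0.38) for Saa1 and -0.64 (SE 0.28) for Lcn2. For other genes among the 19 the controls had much of the same shift. Cyp2b10, a drug-metabolising cytochrome P450, fell by 2.41 (adjusted p 0.00228) against a difference of -1.49 in controls, and its change of effect was -0.93 (SE 0.48), or -0.56 without control replicate 2 of day 1. Of the 19, 14 had a control shift at an unadjusted p under 0.05, a rate of 7.61% over all features. A change of effect at an unadjusted p under 0.05 was found in 5, beside 2.87% of all features. The 19 were picked by the TiO2 difference between the days, which is a part of the change of effect, so that count is not independent evidence.

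Shld2, of the shieldin complex that protects broken DNA ends, rose by 0.875 between the days in TiO2 mice (adjusted p 0.0143 in limma), against 0.13 in controls. Its log2 ratio was 1.19 to 1.73 in the TiO2 mice of day 1 and 1.66 to 2.55 in those of day 28, so only the ends of the groups overlapped. The change of effect was 0.75 (SE 0.23, unadjusted p 0.00384). It rests on a single probe, since the gene's other probes gave -0.05 and -0.02.

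Cyp7a1, whose enzyme sets the pace at which cholesterol becomes bile acid, had the lowest TiO2 effect at both days. Its log2 ratio was 4.86, 2.53, 5.33, 5.24 and 4.33 in the controls of day 1 and 1.68 to 3.72 with a median of 3.12 in the TiO2 mice. At day 28 the controls had 6.21, 4.29, 4.18 and 5.42, and the TiO2 mice 2.73 to 5.14 with a median of 3.64. At day 1 only control replicate 2 lay inside the TiO2 range, and at day 28 the groups overlapped. The effects were -1.68 (SE 0.46) and -1.24 (SE 0.49), and neither passed the adjusted test. Their difference was 0.44 (SE 0.67) with a 95% interval of -0.96 to 1.84, which holds both 0 and a change as large as the effect at day 1. The value was -0.52 with the scanner software's ratio and -0.01 without scan day 3. Leaving out 1 array gave 0.11, without control replicate 3 of day 1, to 0.94, without control replicate 2. A further probe of the gene gave smaller effects, -0.47 at day 1 and -0.53 at day 28, with a change of -0.07. The size of both effects thus depended on the probe.

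The enzymes of cholesterol synthesis had, as a list, small effects at day 1 and mostly positive ones at day 28. Of 27 genes 26 were measured, with 18 changes above 0 and 8 below, beside 49.9% of all features above 0, and a median of 0.18, and 0 passed the adjusted test. The median effect was -0.03 at day 1 and 0.16 at day 28, and the scan days gave medians of 0.41, 0.02 and 0.25. Between the days the median difference was -0.18 in controls, with 19 members lower at day 28 and 7 higher. In TiO2 mice it was -0.01, with 14 lower and 12 higher, so the change of the list lay mostly in the controls. At an unadjusted p under 0.05, 2 members were higher, Hmgcs1 and Mvd, and 0 were lower, beside 1.74% and 1.13% of all features.

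Hmgcs1, the cytosolic enzyme that makes the precursor of mevalonate, had a log2 ratio of 3.53, 3.12, 2.704, 3.55 and 2.89 in the controls of day 1. The TiO2 mice of day 1 had 2.26 to 2.92 with a median of 2.75. At day 28 the controls had 2.50, 3.24, 2.96 and 2.86, and the TiO2 mice 2.81 to 4.01 with a median of 3.34. The TiO2 livers thus lay toward the low end of the controls at day 1 and toward the high end at day 28, with overlap at both. The effects were -0.47 (SE 0.21) and 0.48 (SE 0.22), and the change was 0.95 (SE 0.30, unadjusted p 0.00493). It was 1.92, 0.61 and 0.75 within the scan days, and a further probe of the gene gave 0.17.

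Mvd, which decarboxylates mevalonate pyrophosphate, had effects of -0.11 (SE 0.26) and 0.74 (SE 0.27), a change of 0.85 (SE 0.37, unadjusted p 0.0339). Much of it lay between the controls, which ran from -0.55 to 0.99 at day 1 and from -0.60 to 0.23 at day 28, while the TiO2 mice had -0.33 to 0.97 and -0.13 to 1.03. Further along the pathway the change was 0.43 for Msmo1, 0.51 for Cyp51 and 0.34 for Sqle, none of them at an unadjusted p under 0.05. The other probes of Cyp51 gave 0.26 and 0.07. All the genes named here had a change above 0, while 8 of the 26 members measured had one below 0.

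**Figure D3:**
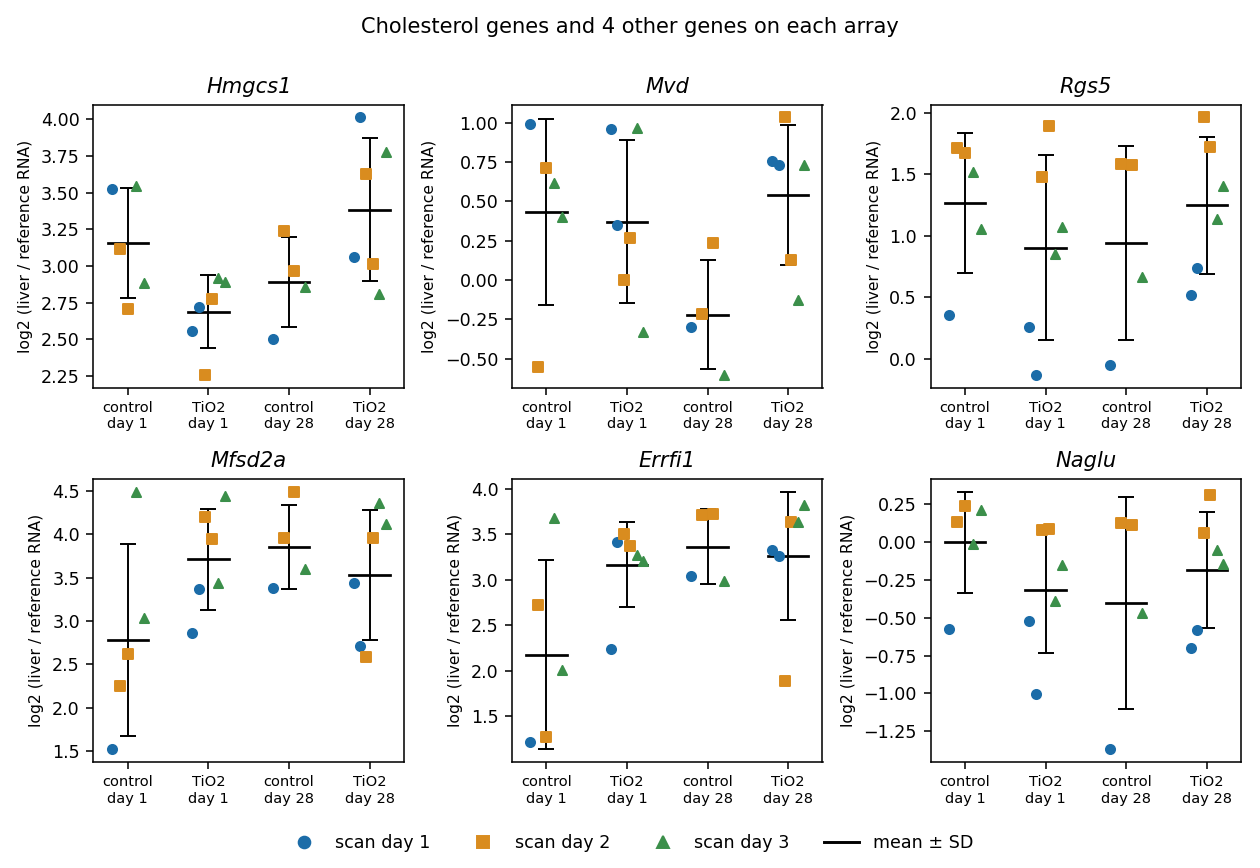
Log2 ratio of liver to reference RNA on each array for Hmgcs1, Mvd, Rgs5, Mfsd2a, Errfi1 and Naglu, by group, with the scan day as colour and shape and the mean with SD in black. Groups overlap in every panel; arrays of scan day 1 are the lowest of their group for Rgs5 and Naglu.

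Genes that respond to glucocorticoids, the stress hormones that act with cytokines on the liver, had the lowest median of the 25 pathway lists. Of 24 genes 22 were measured, 18 with a change below 0 and 4 above, beside 49.9% of all features above 0. The median was -0.29, with median effects of 0.35 at day 1 and 0.10 at day 28. The scan days disagreed, with medians of 0.28, -1.09 and -0.05, and without scan day 2 the median was 0.08. At an unadjusted p under 0.05, 2 members were lower, beside 1.13% of all features, and 0 were higher. They were Lcn2, which is also on the positive acute phase list, and Errfi1, which encodes an inhibitor of the EGF receptor. In 4 of 5 controls of day 1 Errfi1 was between 1.22 and 2.73, with replicate 4 at 3.68, and all other groups had medians above 3. Its change of -1.15 (SE 0.52) was accordingly made by a control difference of 1.25 between the days, with 0.10 in TiO2 mice.

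Mfsd2a, a transporter of lysophospholipids that fasting induces in liver, had a like pattern, with a change of -1.36 (SE 0.47, unadjusted p 0.0085), a control difference of 1.18 and a difference of -0.18 in TiO2 mice. Within scan day 3 it was 0.46, and Errfi1 had 0.35 there, so in both genes 1 scan day went the other way. Without scan day 2 the values were -0.53 and -0.33. Mfsd2a, Errfi1 and the other genes from outside the fixed panel and the ranked genes whose values are given, above or below, were chosen after their values were seen.

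Metallothioneins, which bind zinc and copper and respond to both metals and glucocorticoids, varied widely within groups. Mt2 had a change of -1.52 (SE 0.83) and Mt1 of -0.96 (SE 0.51), with unadjusted p of 0.0813 and 0.0725. In controls of day 1 alone Mt2 ran from -2.39 to 1.27, wider than the change. The 16 measured of 20 genes for metallothioneins and zinc handling had a median of -0.05. Nr4a1, an immediate early nuclear receptor, had an effect of 1.22 (SE 0.32) at day 1 and 0.12 (SE 0.34) at day 28, a change of -1.10 (SE 0.46, unadjusted p 0.0279). Most of this change lay in the controls, which differed by 0.82 (SE 0.35) between the days, against -0.27 (SE 0.30) in TiO2 mice. TiO2 replicate 6 of day 1, at -0.29, was far above the other 5, at -3.04 to -1.52, and without it the change was -0.76. Within scan day 1 it was 0.24.

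Among the other pathways, the 32 measured of 35 interferon-stimulated genes had 27 changes below 0 and 5 above, with a median of -0.18 and median effects of 0.13 and -0.04. Ifit1, an antiviral RNA binder, had -0.48 (SE 0.17) and was the 1 member at an unadjusted p under 0.05, a share near the 2.87% of all features. Within scan day 2 the median of the list was 0.08. The controls of these genes were higher at day 28 than at day 1, with a median difference of 0.25. All 39 genes of PPARA, the fatty acid sensor, and of fatty acid oxidation were measured, 28 above 0 and 11 below, with a median of 0.09 and median effects of -0.16 and -0.03. Acaa1a, a peroxisomal thiolase, had 0.28 (SE 0.13), with its other probes at -0.24 and -0.16, and was the 1 member at an unadjusted p under 0.05, again a share near the 2.87% of all features.

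The 19 measured of 24 genes of gluconeogenesis and glycogen had a median of -0.19 with G6pc, which releases glucose from the liver, at -0.53 (SE 0.23, unadjusted p 0.0285), and the scan days gave list medians of -0.07, -0.26 and 0.03. The 25 measured of 36 cell cycle genes had 21 values below 0, with a median of -0.09, but the scan days gave medians of 0.36, 0.01 and -0.48, so they differed in sign. For complement, 29 of 35 genes were measured, with a median of -0.04, 15 below 0 and 14 above. The 59 genes of oxidative phosphorylation had a median of 0.01. Across the 25 pathway and 12 cell type lists 0 members passed the adjusted test.

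Sinusoidal endothelial cells, which line the liver's capillaries, had the highest median among the 12 cell type lists. All 14 markers were measured, with 12 changes above 0, 2 below and a median of 0.29, and median effects of -0.08 at day 1 and 0.19 at day 28. Dnase1l3, a secreted DNA-cutting enzyme, had 0.64 (SE 0.26, unadjusted p 0.0201) and Fcgr2b, an inhibitory antibody receptor, 0.43 (SE 0.18, unadjusted p 0.0244), and the other probes of Fcgr2b gave 0.26 and 0.53. The mean log2 ratio of the 14 markers overlapped between all groups, from 1.79 to 2.37 and 1.70 to 2.29 in controls and TiO2 mice of day 1 and from 1.60 to 2.51 and 1.56 to 2.50 at day 28. Scan day 1 gave a median of -0.03, scan day 2 of 0.28 and scan day 3 of 0.71. Hepatocyte markers, 14 of 16 measured, had a median of -0.03, with mean log2 ratios of 5.35 to 6.60 per liver. The 10 of 13 lung markers measured, with mean log2 ratios of -0.16 to 0.56 per array, had a median of -0.07. The extraction protocol in the labels speaks of lung and the source of each sample of liver, and the hepatocyte markers were high on every array.

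**Figure D4:**
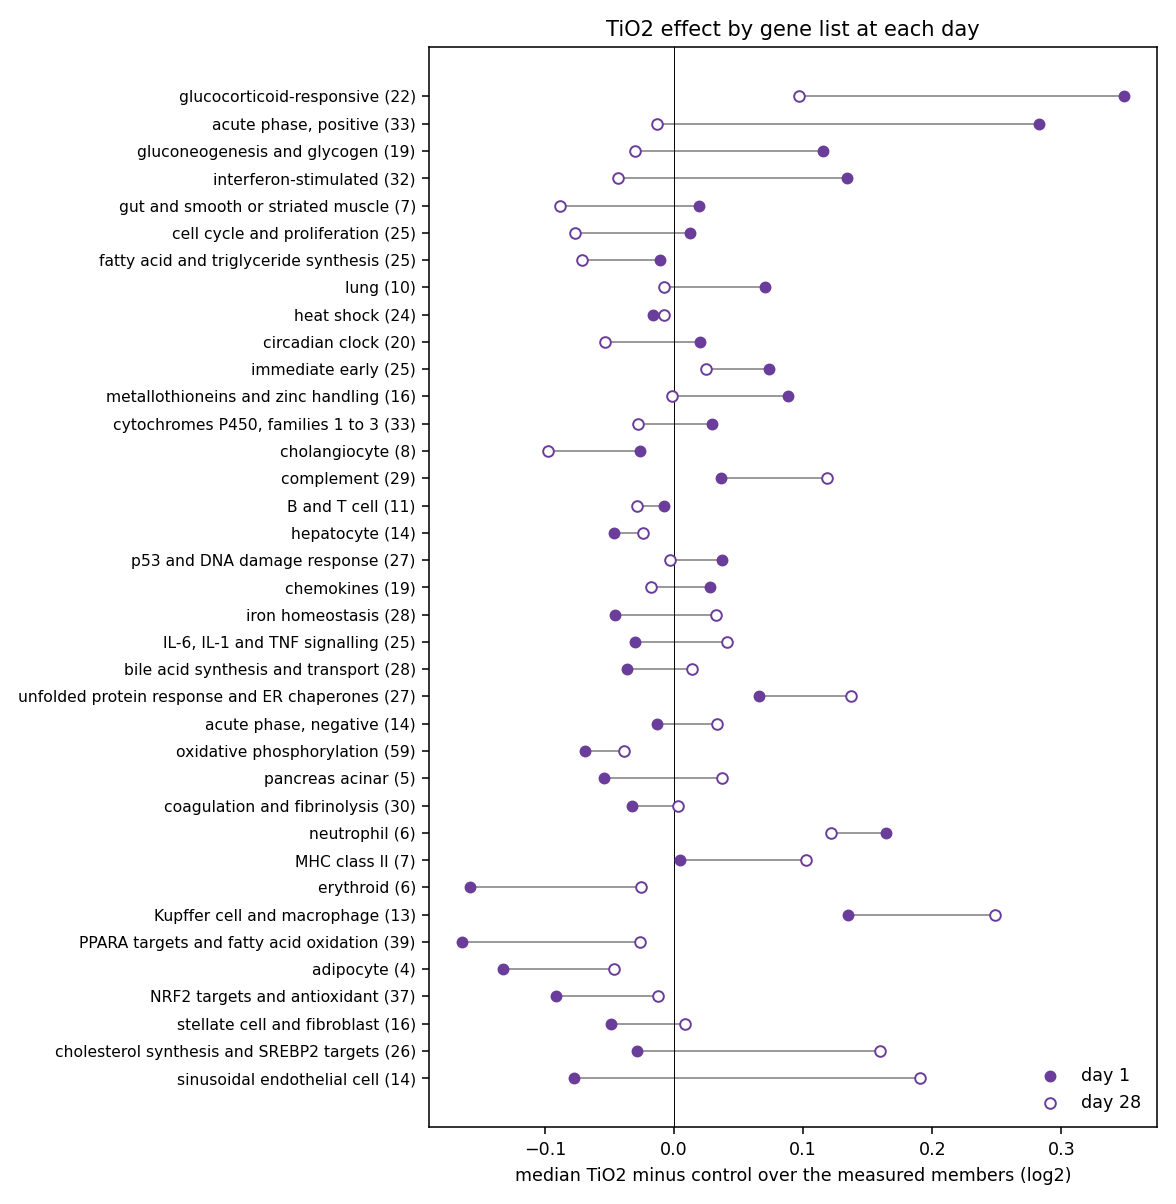
Median TiO2 minus control (log2) over the measured members of 25 pathway and 12 cell type lists, with the number of members in brackets, at day 1 (filled) and day 28 (open), ordered by the median change of effect. The positive acute phase list goes from 0.28 to -0.01 and the cholesterol list from -0.03 to 0.16; 0 members of any list passed the adjusted test.

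The named genes with the 12 lowest moderated t values were Saa3, Saa1, Slc15a2, Strn, Mchr1, Fkbp1b, Fes, Nlrp3, Olfr1282, Lcn2, Il13 and Odr4. Several were close to background: the liver signal was well above it on 4 of 21 arrays for Slc15a2, 6 for Fkbp1b, 7 for Olfr1282, 9 for Nlrp3, 11 for Strn, 12 for Il13 and 13 for Mchr1. Fes, a tyrosine kinase of myeloid and endothelial cells, was above background on 21 arrays, with effects of 0.36 and -0.09 and a change of -0.45 (SE 0.15), and a further probe gave -0.20. Odr4, also on 21 arrays, had -0.49 (SE 0.17) with a control of day 1 far below the others and a further probe at -0.13. Nlrp3, the inflammasome sensor, had -0.46 (SE 0.15), and without a filter on dim probes the value of Slc15a2 turned from -0.49 to 0.01.

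The named genes with the 12 highest moderated t values were Rgs5, Olfr726, Zfp111, Naglu, Cnr2, Shld2, Il15ra, Hnrnpa1, Fgd5, Hmgcs1, Cyp4f13 and Bcar1. Rgs5, a regulator of G protein signalling known from pericytes, led them with a change of 0.69 (SE 0.17, unadjusted p 0.000543) and effects of -0.21 and 0.48. Its log2 ratio was 0.36, 1.72, 1.67, 1.52 and 1.06 in the controls of day 1 and -0.05, 1.58, 1.57 and 0.66 in those of day 28. The TiO2 mice had -0.13 to 1.89 with a median of 0.96 at day 1 and 0.52 to 1.96 with a median of 1.27 at day 28. All 4 groups overlapped, and within each the arrays of scan day 1 were lowest. The change was 0.98, 0.27 and 0.93 within the scan days.

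Naglu, a lysosomal enzyme that degrades heparan sulphate, had 0.53 (SE 0.16), and Cyp4f13, a cytochrome P450, 0.54 (SE 0.17), with the scan days at 0.92, 0.17 and 0.75 and at 0.91, 0.22 and 0.74. With the scanner software's ratio they were 0.29 and 0.12. In 9 of the 12 genes control replicate 1 of day 28 was the lowest of its 4 controls, and in 8 of the 12 control replicate 1 of day 1 was the lowest of its 5. These are the single control arrays of scan day 1 at each time. Arrays of TiO2 mice on that scan day were often the lowest of their 6 too, replicate 1 of day 28 in 7 of the 12 genes and replicate 2 in 2, and replicates 1 and 2 of day 1 in 2 and 5. Among the 12 genes with the lowest t, control replicate 1 was the lowest of its group in 2 genes at day 28 and 5 at day 1. Both sets were ranked by the change of effect, which a low control of day 28 raises. Such counts are thus not independent evidence, and their share over all features was not counted. Control replicate 1 of day 28 had 502 flagged spots, against 103 to 270 on the other 20 arrays. Without that array the counts were 186 features higher and 221 lower at an unadjusted p under 0.05, against 307 and 200 with it. For Il15ra, a receptor subunit for interleukin-15, and Hnrnpa1, an RNA-binding protein, other probes gave -0.03 and -0.02 and -0.15 in place of 0.64 and 0.47.

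**Figure D5:**
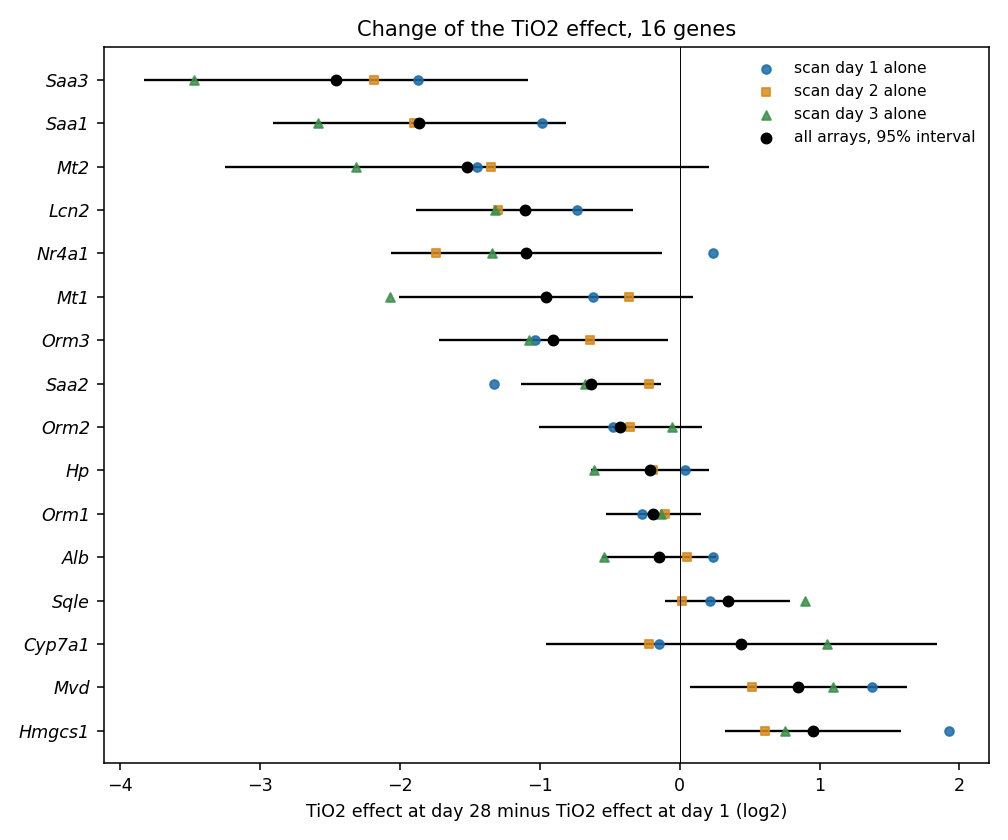
Change of the TiO2 effect from day 1 to day 28 (log2) for 16 genes of the fixed panel, with the 95% interval from all 21 arrays in black and the value within each scan day in colour. The intervals of Saa3, Saa1, Lcn2, Nr4a1, Orm3, Saa2, Mvd and Hmgcs1 leave out 0, before any adjustment over the 17640 features; Nr4a1 is at 0.24 within scan day 1.

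Control values of a few arrays stood behind 2 further large changes. Sult2a8, a sulphotransferase, had a log2 ratio of 1.21 in control replicate 1 of day 28, against 6.72 to 6.82 in the other 3 controls and 6.27 to 7.13 in the other 17 mice. Its change of effect was 1.31 (SE 0.88), and without that array it was -0.09. Bcl6, a transcriptional repressor of liver known to vary with growth hormone, was at 2.84, -1.02, 1.89, -0.58 and 2.47 in the controls of day 1, and between -1.07 and 1.29 in all other mice. Its change of 1.31 (SE 0.86) was 1.92 without control replicate 2 of day 1 and 0.81 without replicate 1, and it was 2.66, -0.20 and 2.80 within the scan days. Both are control values, not values of TiO2 mice.

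Leaving out TiO2 replicate 2 of day 1, the mouse with acute phase values among the controls, gave a change of -2.88 for Saa3, -2.16 for Saa1 and -1.36 for Lcn2. The adjusted p in limma was then 0.342 for Saa3 and 0.391 for Saa1, and 0 features passed. Leaving out replicate 6 of the same group, which had the highest Saa3, Saa1 and Lcn2, gave -2.09, -1.65 and -0.88.

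The liver signal was well above background at 15216 to 16903 probes on arrays of scan day 1. Scan day 2 had 20879 to 26616 such probes per array, and the range was 12985 to 16755 for scan day 3. Each scan day held arrays of all 4 groups, with 1 control array of each time on scan day 1 and 1 control array of day 28 on scan day 3. By group the medians were 16638 and 18706 in controls and 16703 and 16806 in TiO2 mice of day 1 and day 28.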

How the data were processed

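Liver RNA of 21 mice was measured on 21 arrays, 1 per mouse, with replicates numbered in order of deposition and pairing no animals. Groups came from the treatment and time labels; 22 arrays are given in the design text, of which 21 are used here. The members and gene lists were chosen with earlier results of these data known. The deposited spot values are intensity, unnormalized per the file headers: median brightness of spot and local background, from Feature Extraction 10.7.3.1 (the submitters' processing notes name 9.5.3.1). The deposited LogRatio is log10 of processed red over green, per the file headers. The authors' deposited value table holds log2 values whose centring is not stated; its direction and scale were matched to the arrays (correlations 0.9957 to 0.9971, slopes 0.991 to 0.993, medians -0.058 to -0.011). The deposited flags mark spots well above background.

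Background was corrected in limma 3.58.1 (R 4.3.3) by normexp, offset 50, on median signals, the mean signal foreseen not being used here. For normexp, deviant spots took the array's median background. Loess followed, with control spots at weight 0, and 103 to 502 flagged spots per array were left out. Probes well above background in Cy5 on 50% of the arrays of a group were kept, 21405 in all. The RefSeq table of GRCm38.p6 named 23374 of 41174 probes by accession; the headers name mm8, so only RefSeq promoters carry coordinates. Where a gene had several probes, the one brightest on average in liver was tested; 211 features lack a value on some array and were fitted without it.

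One limma model held 4 group means and scan day over 21 arrays, with Benjamini-Hochberg adjustment over 17640 features and a threshold of 0.05. Single scan days give differences of means, with no test. Named genes are the 12 highest and 12 lowest moderated t values of named genes, 16 genes of a fixed panel and up to 4 members per list; some other genes are not reported here. The ranked and panel genes, without the list members, came to 36, of which 31 matched a RefSeq promoter. The model was tested on simulated data. The number of arrays limits the precision. The labels call the mice biological replicates.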

Additional observations from a re-analysis of the deposited data

Results flagged for a closer look

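In 9 of 144 pairs of a ranked or panel gene and a group, 1 array lay far from the others. Chance gives about 1 in 20. Control replicate 1 of day 1, the only control of that day on scan day 1, held 4 of them. Odr4 was at -0.2 there against 0.4 to 0.6 in the other controls. Cyp4f13 was at 0.64 against 1.7 to 1.87. Saa2 was at 3.45 against 4.67 to 5.01, and Hp at 5.67 against 6.64 to 6.82. Control replicate 4 of day 1 was high for Orm3, at 3.76 against 2.29 to 2.68, and for Sqle, at 1.47 against 0.86 to 0.93. Control replicate 2 of day 28 had Orm3 at 3.02 against 2.58 to 2.65. In TiO2 mice of day 28, Orm1 was at 7.19 in replicate 5 against 6.17 to 6.52, and Nr4a1 at -3.11 in replicate 3 against -2.36 to -2.03.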

How the results depend on the processing

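No feature passed the adjusted test under any of the 40 alternatives. The smallest adjusted p of limma among them was 0.342, without TiO2 replicate 2 of day 1. Aquantile scaling between arrays, counted among the 40, leaves log ratios unchanged and gave the main values again. The trend and robust options of limma alter the spread but not the change of effect. Neither setting could turn a sign. The count at an unadjusted p under 0.05, 507, was 136 without the scan day term, 286 with array weights, 166 with normexp on all spots, 274 with probes above background on every array, 1252 with no filter on dim probes, 1004 without scan day 2 and 332 without scan day 3. Leaving out 1 array gave 380 to 889, the most without control replicate 2 of day 1, and 841 without TiO2 replicate 1 of day 28. The split of 307 higher and 200 lower became 518 and 41 with median centring in place of loess, which moved the median of all features to 0.08, and 242 and 297 with the liver channel alone. It was 57 and 109 with normexp on all spots and 53 and 83 without the scan day term.

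List medians that moved by more than the residual SD of a list's median between mice, after group and scan day, were as follows; for each of these lists the plain SD within at least 1 group was larger. The negative acute phase list had 0.147 with median centring and 0.155 with the liver channel alone. The glucocorticoid list had -0.579 with array weights, -0.571 with the scanner software's ratio, -0.568 without scan day 1 and 0.076 without scan day 2. The interferon list had -0.347 without scan day 2. PPARA targets had 0.249 with normexp on all spots and 0.224 with median centring. Gluconeogenesis had -0.015 and -0.045 under the same settings, 0.0047 without scan day 2 and -0.370 without scan day 3, and -0.292 to -0.047 with 1 array left out. Complement had 0.225 and 0.120. Metallothioneins had 0.042 with median centring, 0.019 with the scanner software's ratio and -0.109 without scan day 3. Sinusoidal endothelial markers had 0.499 without scan day 1 and 0.064 without scan day 3. The cause was not tested. The positive acute phase list ran from -0.261 to -0.082 over all alternatives and the cholesterol list from 0.043 to 0.320.

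Of the 36 ranked and panel genes, 30 kept their sign throughout. The exceptions were Slc15a2 at 0.0070 with no filter, Hnrnpa1 at -0.029, Orm1 at 0.354 and Orm2 at 0.127 with normexp on all spots, and Orm1 at 0.254, Cyp7a1 at -0.515 and Alb at 0.100 with the scanner software's ratio. Without scan day 3 Cyp7a1 was at -0.011 and Alb at 0.051. Values of dim genes are limited by signal over background. No paired analysis was possible because the replicate numbers were given here in accession order and pair no animals.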
